A study of Rattus norvegicus with 12 samples.

Results

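The enzymes that copy and mend DNA were followed through the repair tissue of rat femur defects. Members were the genes whose annotated pathways in the deposited table held DNA replication, mismatch repair, base excision repair, homologous recombination or the Fanconi anemia pathway and did not hold the cell cycle pathway. This rule found 120 of the 22601 genes in the table, 27 of them in DNA replication, 21 in mismatch repair, 34 in base excision repair, 38 in homologous recombination and 48 in the Fanconi anemia pathway, with 32 genes in more than 1 of these. It left out 9 genes of these pathways that also carry the cell cycle label, namely Atm, Atr, Mcm2 to Mcm7 and Pcna.

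The femoral condyle of 8-week-old Sprague Dawley rats was opened with a 3 mm drill, and material from the defect was taken 2 weeks later for polyA RNA sequencing of 12 libraries. The 4 groups of 3 libraries each were control, in which the defect held no scaffold, and hydrogel, PCL and β-TCP, in which it held a scaffold of gelatin methacryloyl, of the polyester polycaprolactone or of the ceramic beta-tricalcium phosphate. The drilled defect was shared by all groups, and no genotype, drug or transgene differed between them. For control the methods name newly formed tissue as the material. For the scaffold groups they name the symbiosis niche, which the paper describes as made up of the scaffold, cells and regenerated tissue. In the comparisons with control, this difference in material cannot be told apart from the scaffold itself. The methods describe several rats a group and independent samples in each statistical analysis, but neither they nor the labels say which rat or rats a library came from, so the p-values below measure the spread between these libraries, which may be in part technical. The values of a group are listed in the order of replicates 1, 2 and 3, as FPKM, that is fragment numbers divided by the length of the gene and the size of the library, which can be compared between genes because they are set per length.

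When a cell divides, primase and the DNA polymerases α, δ and ε copy each strand at the replication fork, a sliding clamp is set on the DNA by the replication factor C loader, and replication protein A (RPA) coats the strand that lies bare. Repair enzymes work on the copied and on the resting genome. Mismatch repair corrects wrongly paired bases, base excision repair removes single damaged bases through a glycosylase, homologous recombination mends broken ends from the sister copy, and the Fanconi proteins open strands that are linked to each other. In a healing bone defect many cell types divide, among them stromal, cartilage and bone-forming cells and the blood-forming cells of the marrow. In bulk tissue of this kind, fewer dividing cells and less RNA of these genes per cell cannot be told apart.

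The libraries held 15035857 to 17357782 fragments, recovered from the steps of the FPKM values, and a tested member had a median of 404 fragments per library. The 12 bone-forming markers, with Col1a1 and Bglap among them, were measured in every group, at summed levels of 9418 to 39699 FPKM over the 12 libraries. Control 3 stood apart from the other controls. Hemoglobin genes made up 0.953% of its FPKM against 3.02% to 23.3% in the other 11 libraries, and its cartilage markers summed to 15594 FPKM against 2719 and 2729 FPKM in the other controls. β-TCP 2 and β-TCP 3 lay closer to each other than any other pair of 1 group, with a mean chi-square per gene of 2.13 against 34.8 to 351. This was still above the value of 1 that sampling noise gives, which does not decide whether they came from different rats. They were kept as separate libraries and averaged as an alternative, and results with both may count 1 source more than once.

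Of the 120 members, 113 had at least 1 FPKM in at least 3 libraries and were tested. The 7 others were Rad51b, a protein of homologous recombination that reached 1.2 FPKM in its highest library, and 6 genes under 1 FPKM in all 12 libraries. The latter were Neil2, a glycosylase for oxidized bases, Poln, a translesion polymerase, Sycp3, a protein of the meiotic chromosome axis, and Apex2l1, Ercc4l1 and Hmg1l1, which are named as copies of other members and whose reads could be shared with them. Sycp3 was listed at 0 in 10 libraries and Apex2l1 in 11.

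Expression of the tested members spanned the range from Xrcc3 and Rad54b, whose mean levels over the 12 libraries were 0.82 and 0.775 FPKM, to Parp1, Prim1 and Rpa3 at 47.2, 44.2 and 46 FPKM. Parp1 is the main sensor of DNA strand breaks, Prim1 the catalytic subunit of primase and Rpa3 the smallest subunit of RPA. The levels of these 3 genes overlapped across the libraries, so their order was not larger than the spread. Within base excision repair the endonuclease Apex1, which cuts at the site a glycosylase has left, reached 39.97 FPKM, and the glycosylase Tdg, which removes thymine or uracil paired with guanine, 36.8 FPKM. All 113 tested members together held 0.207% to 0.425% of the FPKM of a library.

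The members did not vary alike. The spread of a gene was taken as the SD of log2(FPKM + 1) over the 12 libraries, whose median was 0.270 over all 12633 genes tested and 0.382 over the tested members. Genes of the replication fork spread most, with medians of 0.625 for the 12 polymerase and primase subunits, 0.571 for the 9 clamp loader and single-strand binding genes and 0.477 for the 6 enzymes of primer removal and ligation. The lowest medians were 0.206 for both Fanconi roles, 0.242 for the later steps of base excision repair and 0.290 for the translesion polymerases, which copy past damaged bases. Mismatch repair, homologous recombination and the glycosylases lay between, at 0.361 to 0.424.

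**Figure D1:**
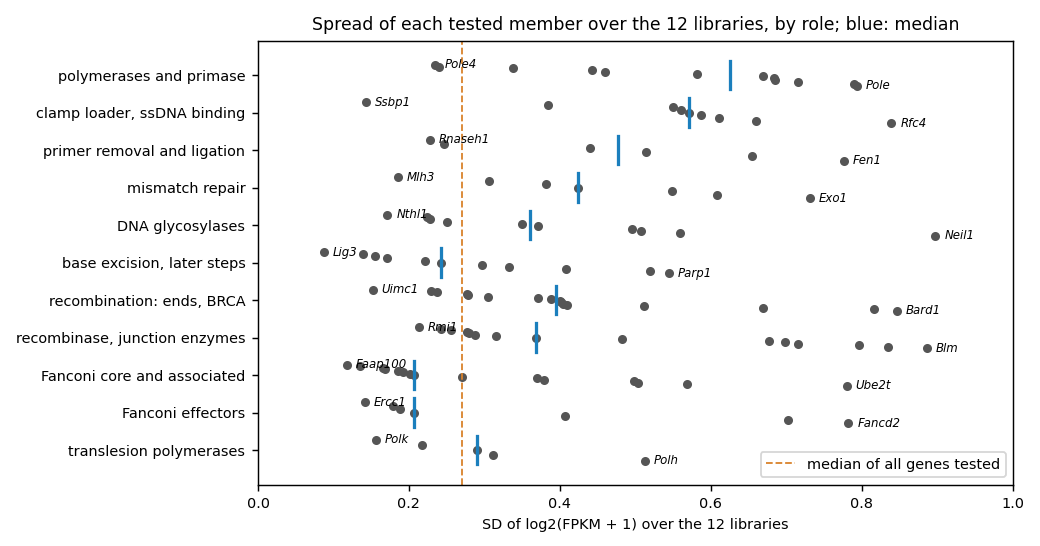
Each point is a tested member, placed by its role and by the SD of its log2(FPKM + 1) over the 12 libraries. The blue bars are medians by role, the dashed line is the median of 0.270 over all genes tested, and the most and least variable member of each role is named. Most fork genes lie right of the line and most Fanconi core genes left of it, and each role holds at least 1 gene right of it.

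Each role nevertheless held both kinds of gene. Glycosylases ran from Nthl1, with an SD of 0.171, to Neil1, the most variable member at 0.897, and both remove oxidized bases. The Fanconi core and its partners ran from Faap100 at 0.117 to Ube2t, the ubiquitin-conjugating enzyme of the pathway, at 0.78. Among recombination enzymes the helicase Blm had an SD of 0.886, and its partners in resolving crossed strands differed, with 0.796 for Rmi2 and 0.213 for Rmi1. The polymerase subunits Pole and Pold1 lay at 0.794 and 0.79, whereas Pold4 and Pole4, small accessory subunits of the same enzymes, lay at 0.24 and 0.235.

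Among members with a mean of at least 5 FPKM, the 5 steadiest were Lig3, Wdr48, Polb, Ercc1 and Ssbp1, with SDs of 0.0871 to 0.143. Lig3, the ligase that closes the nick in base excision repair and in mitochondrial DNA, read 9.38, 8.81 and 8.64 FPKM in control, 8.85, 8.66 and 9.02 in hydrogel, 9.25, 8.31 and 7.4 in PCL and 9.06, 8 and 8.23 in β-TCP. No group stood above or below the others for Lig3. Ssbp1 binds single-stranded DNA in mitochondria, Polb fills the gap in base excision repair, Ercc1 belongs to the nuclease that cuts beside DNA crosslinks, and Wdr48 is the partner of the deubiquitinase Usp1. Wdr48 held at 14.1 to 19.9 FPKM over the 12 libraries while Usp1 ranged from 17.2 to 68.8 FPKM.

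Since steady and variable genes stood side by side in each role, the promoters were read for the letters that the E2F factors, regulators of genes for the S phase, are known to bind. RefSeq promoters of the GRCr8 assembly were matched by gene identifier for 101 of the 120 members, 99 of them tested, and those without an entry included Apex2, Apex2l1, Blm, Ercc4l1, Hmg1l1, Nbn, Neil2, Neil3, Polb, Poll, Poln, Rad54b, Rmi2, Rpa3, Smug1 and Xrcc2. The letters TTTCCCGC, TTTGGCGC, TTTCGCGC or TTTGCCGC were searched on both strands in the 250 bases before the first listed start, and these variants can overlap each other. They stood in 9 of 99 tested members (9.09%), in 334 of 10165 tested genes (3.29%) and in 498 of all 27457 promoters (1.81%). The 9 windows of 48 bases that hold them are given from 5′ to 3′ of the gene with the match in capitals, the 4 most variable of these members first, then Ung, then the 4 steadiest.
Bard1: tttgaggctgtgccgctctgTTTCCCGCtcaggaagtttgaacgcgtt
Pola1: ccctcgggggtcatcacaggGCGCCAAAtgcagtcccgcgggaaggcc
Topbp1: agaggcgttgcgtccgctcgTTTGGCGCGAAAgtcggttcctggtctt
Usp1: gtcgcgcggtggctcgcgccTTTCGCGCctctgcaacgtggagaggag
Ung: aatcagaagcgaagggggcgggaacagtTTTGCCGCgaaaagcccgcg
Rad51d: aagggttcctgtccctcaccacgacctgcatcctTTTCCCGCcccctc
Pole4: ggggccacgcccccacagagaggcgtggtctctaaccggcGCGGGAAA
Fancc: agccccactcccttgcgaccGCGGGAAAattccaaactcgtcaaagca
Nthl1: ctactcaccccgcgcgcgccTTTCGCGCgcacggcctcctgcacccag

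The windows lay on GRCr8 at chr9:80143933-80143980 (Bard1, minus strand), chrX:62342500-62342547 (Pola1, minus), chr8:112766727-112766774 (Topbp1, plus), chr5:118703005-118703052 (Usp1, plus) and chr12:48154046-48154093 (Ung, minus). Those of the steady members lay at chr10:68321903-68321950 (Rad51d, minus), chr4:116728852-116728899 (Pole4, minus), chr17:1687040-1687087 (Fancc, plus) and chr10:14160178-14160225 (Nthl1, plus). In Pola1, Pole4 and Fancc the capitals are read on the opposite strand, and in Topbp1 they join an overlapping pair of matches. When the 99 members were cut by their SD into 3 sets of 33, the match stood in 4 of the most variable set, whose SDs were at least 0.512, in 1 of the middle set and in 4 of the least variable set, whose SDs were at most 0.256, so these letters did not part the variable from the steady members. The CCAAT box, with the letters CCAAT on either strand, stood in 34.3% of tested members and 35.8% of tested genes, and TTTGAA, the letters of the cell cycle homology region, in 11.1% and 10.6%. A match describes the sequence and says nothing of binding.

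Ordered by library, the tested members were high or low together. Each gene was centred on its mean over the 12 libraries, and the median over the 113 members was -0.03, 0.34 and -0.63 on the log2 scale in control, 0.24, 0.16 and 0.55 in hydrogel, 0.13, 0.02 and 0.15 in PCL and -0.14, -0.37 and -0.38 in β-TCP. Over all genes tested the same medians stayed between -0.28 and 0.10. Control 3 was the lowest library for 86 of the 113 members and hydrogel 3 the highest for 80. Thus the controls spanned nearly the whole range of the study, and the 3 β-TCP libraries lay below every hydrogel and PCL library.

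**Figure D2:**
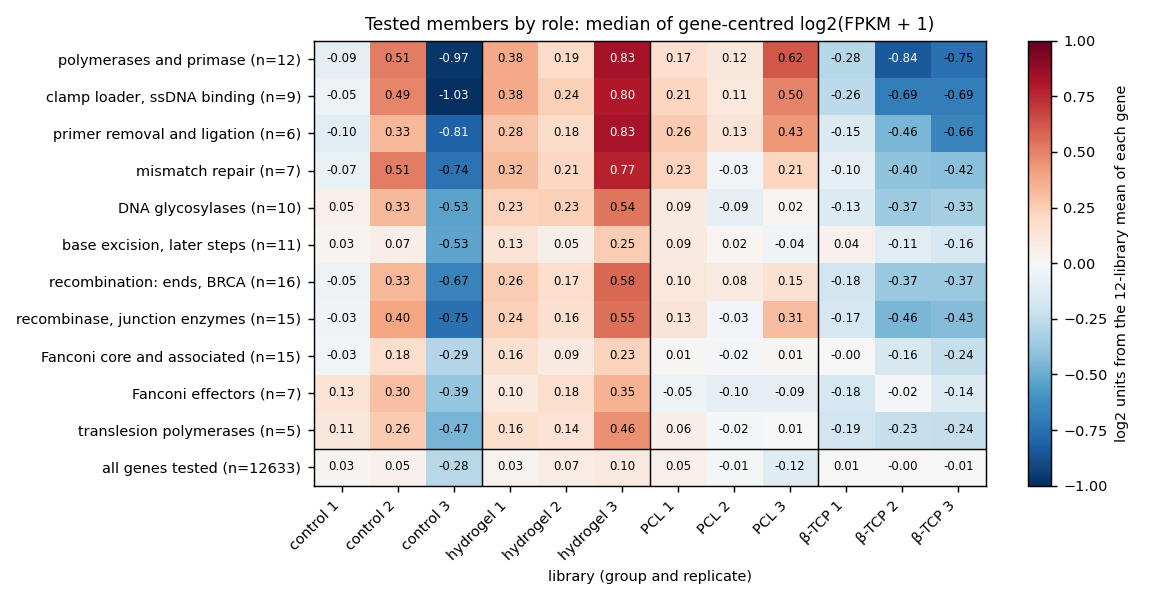
Rows are the roles of the tested members and, last, all 12633 genes tested, and columns are the 12 libraries. Each cell gives the median over the genes of a row of log2(FPKM + 1) after centring each gene on its mean over the libraries, so that red is above and blue below that mean, with the colours reaching their full depth at 1. The polymerase row runs from -0.97 in control 3 to 0.83 in hydrogel 3, and the row of all genes from -0.28 to 0.10.

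Summed over genes, the replicative polymerases and primase gave 159, 237 and 87.4 FPKM in control, 216, 201 and 309.6 in hydrogel, 189.7, 181 and 258 in PCL and 147, 111 and 113 in β-TCP. The lowest hydrogel and PCL libraries stood above the highest β-TCP library, and the control libraries lay on both sides of it. For the later steps of base excision repair the sums were 214, 249 and 146 FPKM in control, 232, 235 and 291 in hydrogel, 235, 213 and 231 in PCL and 211, 193 and 192 in β-TCP. Here the scaffold groups lay closer, with means of 253 ± 33.3, 226 ± 11.8 and 199 ± 10.8 FPKM (SD, n = 3) in hydrogel, PCL and β-TCP, and the low value was again that of control 3.

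The comparison that parted the members most was β-TCP against hydrogel. With limma on log2(FPKM + 1) and adjustment over all 12633 genes, 6 of the 113 members fell and none rose in β-TCP, a share of 5.31% lower where 0.966% of all genes tested were called lower and 5.17% higher. The study's methods set a threshold on the p-value, at 0.05, and on the fold change, at 2 in either direction. It was applied here to the unadjusted p of limma and to the fold change on the FPKM + 1 scale, neither of which the methods specify, and by this version of the study's threshold 32 members (28.3%) were lower and none higher, against 5.02% of all genes lower and 3.36% higher. An unadjusted p under 0.05 was reached by 70 members (61.9%) and by 34.4% of all genes. All 3 β-TCP libraries lay below all 3 hydrogel libraries for 86 members (76.1%), which held for 34.5% of all genes, and above them for 4 (3.54%), against 23% of all genes. The median log2 fold change was -0.60 for the members and -0.06 for all genes tested, and 102 of the 113 members had a negative value (90.3%), as had 55.1% of all genes.

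The count of 6 rested on single libraries. It was 0 without hydrogel 1, hydrogel 3, β-TCP 2 or β-TCP 3, 1 without control 1, PCL 1 or PCL 2, and 3 without hydrogel 2 or PCL 3. The count was 4 without β-TCP 1, with 3 of these among the 6, 52 without control 2 and 73 without control 3. Calls over all 12633 genes tested also rose, from 775 to 1967 without control 2 and to 4736 without control 3. All 12 libraries share 1 estimate of the spread in this model, so leaving out a control or PCL library changed that estimate and not the fold changes. With β-TCP 2 and β-TCP 3 averaged, the count was 0, and the calls over all genes tested fell from 775 to 16. The count at the study's threshold was 15 without hydrogel 3, 22 without β-TCP 2 and 24 with that average. The median log2 fold change of the members stayed between -0.69 and -0.49 when any 1 library was left out.

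**Figure D3:**
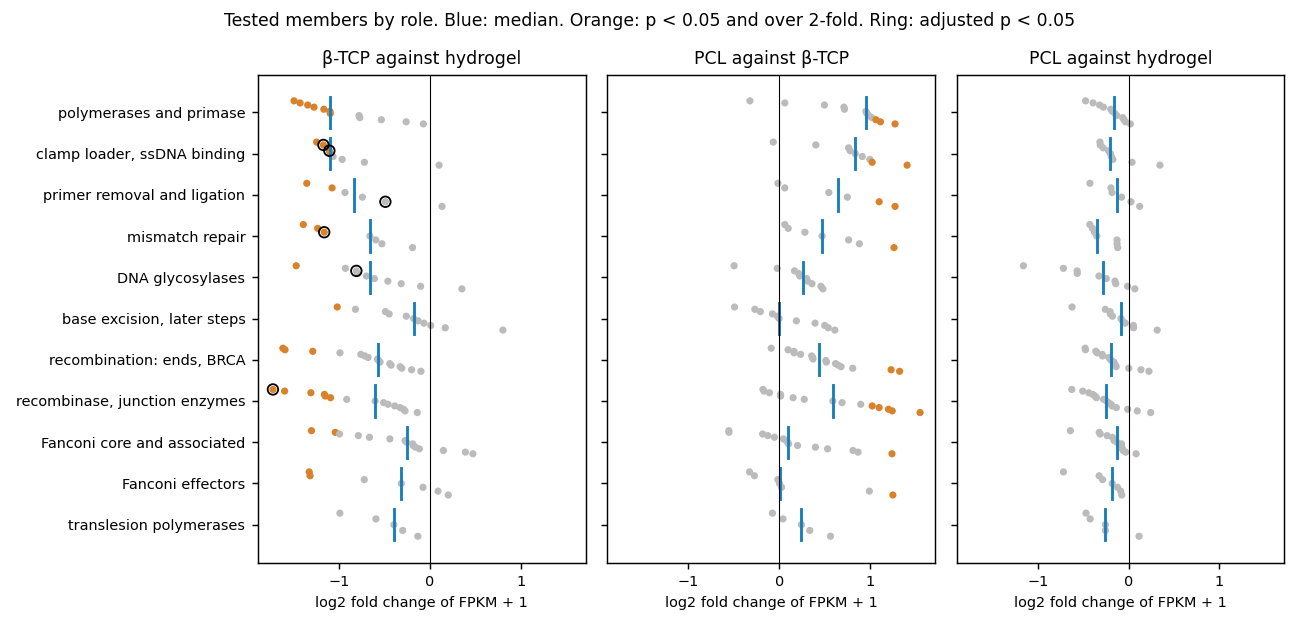
Each point is the log2 fold change of a tested member on the FPKM + 1 scale, by role, in β-TCP against hydrogel, PCL against β-TCP and PCL against hydrogel. Blue bars are medians, orange points passed the study's threshold, and rings mark an adjusted p under 0.05 in limma. The left panel shows the 6 ringed genes and the roles of the fork near -1, and the right panel holds no orange point.

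Rmi2, a subunit of the complex that untangles recombining strands, read 4.67, 11.4 and 2.28 FPKM in control, 7.6, 7.81 and 12.5 in hydrogel, 5.57, 4.8 and 6.34 in PCL and 2.95, 1.74 and 1.61 in β-TCP. The β-TCP values were the lowest of the scaffold groups without overlap, and control 2 was near hydrogel 3. The log2 fold change in β-TCP against hydrogel was -1.73 ± 0.40 (SE), adjusted p = 0.0345 in limma. Ogg1, the glycosylase for 8-oxoguanine, read 10.3, 12.3 and 7.66 FPKM in control, 14.3, 13.5 and 15.8 in hydrogel, 11.9, 9.94 and 12.5 in PCL and 9.07, 7.14 and 7.51 in β-TCP. All 3 hydrogel libraries lay above all 9 others, and the change in β-TCP was -0.81 ± 0.16 (SE), adjusted p = 0.0217, or a mean of 7.91 ± 1.02 against 14.6 ± 1.15 FPKM (SD, n = 3).

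At the fork, the RPA subunits Rpa2 and Rpa3 fell by 1.17 and 1.10 on the log2 scale in β-TCP against hydrogel, with adjusted p of 0.0458 and 0.0425 in limma. Rpa2 read 23.4, 34.6 and 12.7 FPKM in control, 33, 29.3 and 43.2 in hydrogel, 29.96, 26.4 and 36.4 in PCL and 17.2, 13 and 14.7 in β-TCP. Rpa3 read 33.8, 56.4 and 27.4 FPKM in control, 56.2, 48.3 and 83.4 in hydrogel, 46.2, 48.1 and 68.3 in PCL and 30.2, 28.2 and 25.3 in β-TCP. For both, β-TCP lay below hydrogel and PCL in every library, and control 3 was the lowest control, within the range of β-TCP for Rpa3 and just under it for Rpa2. The third subunit, Rpa1, was lower by a similar amount, -1.09 ± 0.32 (SE), with adjusted p = 0.0641, past the study's threshold and not the adjusted one.

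Of the other clamp loader and binding genes, Rfc3 and Rfc5, subunits of the clamp loader, passed the study's threshold with log2 fold changes of -1.24 and -1.12. Rfc4, the most variable gene of this role, read 28.4, 45.1 and 9.07 FPKM in control, 42.7, 31.7 and 54.8 in hydrogel, 37.8, 51.4 and 79.5 in PCL and 26.6, 16.9 and 16.7 in β-TCP. β-TCP did not overlap with hydrogel or PCL for Rfc4, yet PCL 3 was far above PCL 1, and the change of -1.06 ± 0.49 (SE) did not pass either rule. Rfc1 and Rfc2, the other loader subunits of the table, had values of -0.72 and -0.96, and the mitochondrial Ssbp1 0.10. The median of the 9 genes was -1.09.

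The replicative polymerases and primase had a median log2 fold change of -1.10, and 7 of 12 passed the study's threshold in β-TCP against hydrogel while none passed the adjusted one. These 7 were Pola1 and Pola2 of polymerase α, Pold1 and Pold2 of δ, Pole and Pole2 of ε and the primase Prim1, with values of -1.49 to -1.09. Prim1 read 38.9, 61.7 and 16.6 FPKM in control, 53.9, 50.003 and 83.9 in hydrogel, 42.4, 43.5 and 68.2 in PCL and 28.7, 20.9 and 21.4 in β-TCP. Pole, the catalytic subunit of ε, read 7.39, 13.3 and 2.29 FPKM in control, 11.9, 9.37 and 16.3 in hydrogel, 9.58, 9.48 and 14.3 in PCL and 5.47, 3.32 and 3.28 in β-TCP. In both genes every β-TCP library was below every hydrogel and PCL library, and control 3 was the lowest of all.

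Other subunits of the same polymerases moved less. Pold4 was measured at 13.7, 15.7 and 19.8 FPKM in hydrogel and 15.1, 16 and 15.2 in β-TCP, which overlapped, with a log2 fold change of -0.07 ± 0.16 (SE), and Pole4 and Pole3, small histone-fold subunits, had -0.26 and -0.53. Pold3 and Prim2, the large primase subunit, had -0.77 and -0.78. Whether a catalytic subunit differed from its accessory subunit was not tested.

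In primer removal and ligation, the flap endonuclease Fen1 read 15.1, 24.4 and 5.28 FPKM in control, 23, 19.1 and 33.6 in hydrogel, 20.1, 20.8 and 29.9 in PCL and 11.4, 8.22 and 7.76 in β-TCP. The β-TCP libraries lay below hydrogel and PCL, and the log2 fold change against hydrogel was -1.35 ± 0.43 (SE), with Lig1, the ligase that joins Okazaki fragments, at -1.07 ± 0.38 (SE). Both passed the study's threshold only, with adjusted p of 0.0738 and 0.088. Rnaseh1, which digests RNA paired with DNA, had a smaller change and a tighter spread, at 14.1, 15.6 and 12.1 FPKM in control, 17.7, 18 and 18.4 in hydrogel, 14.3, 12.9 and 12.4 in PCL and 14.2, 12.6 and 11 in β-TCP. Hydrogel stood above all other libraries, and the gene fell by 0.49 on the log2 scale in β-TCP, adjusted p = 0.0444. The subunits of RNase H2 parted, with -0.93 for Rnaseh2b, -0.74 for Rnaseh2c and 0.14 for the catalytic Rnaseh2a, a difference that was not tested.

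All 7 mismatch repair genes had negative values, with a median of -0.66. Msh6, which helps to find single mismatched bases, read 13.1, 20.3 and 7.83 FPKM in control, 17.7, 18 and 27.3 in hydrogel, 16.9, 13.4 and 16.1 in PCL and 10.4, 7.86 and 7.88 in β-TCP. β-TCP lay below hydrogel and PCL in every library, and Msh6 fell by 1.16 on the log2 scale against hydrogel, adjusted p = 0.0416 in limma. The exonuclease Exo1 passed the study's threshold with -1.39, whereas Msh3, which acts on larger loops, had -0.66. Of the MutL proteins that act next, Pms2 and Mlh3 had -0.53 and -0.19.

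The glycosylases had a median of -0.65, and Ogg1 was the called gene among 10. Neil1, whose SD on the log2 scale was the highest of the tested members, read 9.64, 19.6 and 2.05 FPKM in control, 13.4, 13.3 and 22.4 in hydrogel, 11.1, 5.03 and 4.94 in PCL and 7.34, 4.03 and 4.42 in β-TCP. Its value was -1.47 ± 0.58 (SE) in β-TCP and -1.16 ± 0.58 (SE) in PCL against hydrogel, and PCL 2 and PCL 3 lay with β-TCP while PCL 1 lay nearer to hydrogel. Mutyh, which removes adenine opposite 8-oxoguanine, had -0.79 in β-TCP, Tdg -0.46 and Nthl1 -0.10. Smug1, a uracil glycosylase, went the other way with 4.91, 4.36 and 5.02 FPKM in control, 4.69, 4.82 and 4.44 in hydrogel, 4.47, 4.83 and 3.21 in PCL and 6.94, 5.87 and 5.9 in β-TCP. β-TCP stood above all other libraries, at 0.35 ± 0.13 (SE) against hydrogel and adjusted p = 0.103.

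After the glycosylase, base excision repair changed least, with a median of -0.18 and values of both signs, 3 positive and 8 negative. Hmgb1, an abundant chromatin protein that the annotation places here, was the gene past the study's threshold, at -1.02. Parp1 read 45.3, 63.4 and 18.1 FPKM in control, 51.6, 52.8 and 78.3 in hydrogel, 52.5, 45.5 and 57.9 in PCL and 35.8, 32.8 and 32 in β-TCP, with -0.82 ± 0.36 (SE) in β-TCP against hydrogel. Parp3 and Parp4, relatives of Parp1, had positive values of 0.81 and 0.17, and Parp3 read 7.37, 8.6 and 5.46 FPKM in hydrogel and 11.3, 13.7 and 14.3 in β-TCP, with no overlap and adjusted p = 0.0704. The core of the pathway, Apex1, Polb, Xrcc1 and Lig3, lay at -0.26, -0.18, -0.13 and -0.06.

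In homologous recombination the 16 tested genes of end processing and the BRCA complexes were all negative, with a median of -0.57, and the 15 of the recombinase and junction enzymes likewise, with -0.60. Over the alternatives the first median ran from -0.71 to -0.44 and the second from -1.18 to -0.52. That of the polymerases and primase ran from -1.31 to -0.90, so the recombinase role reached the range of the fork. Bard1 and Brca1, partners in a ubiquitin ligase at broken ends, passed the study's threshold with -1.62 and -1.59, as did Topbp1, a scaffold at stalled forks, with -1.29. Bard1 read 8.99, 15.6 and 2.87 FPKM in control, 15.4, 11.8 and 22.3 in hydrogel, 12, 10.9 and 16.4 in PCL and 6.71, 3.89 and 3.52 in β-TCP. Its β-TCP libraries lay below those of hydrogel and PCL, and control 3 lay lower still. The nuclease complex that trims the ends had -0.76 for Mre11a, -0.71 for Rad50 and -0.42 for Nbn, and the deubiquitinase complex members Babam1, Bre and Uimc1 had -0.31, -0.10 and -0.20.

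Beside Rmi2, genes of the recombinase and junction role that met the study's threshold were Blm, Eme1, Rad51c and Rad54l among others, with log2 fold changes of -1.31, -1.16, -1.15 and -1.09. Blm read 11.3, 20.4 and 3.42 FPKM in control, 19.98, 13.1 and 24.9 in hydrogel, 16.4, 21.8 and 31.1 in PCL and 9.995, 5.73 and 5.84 in β-TCP. Every β-TCP value of Blm lay below those of hydrogel and PCL, and the highest library of the study was PCL 3. The topoisomerases Top3a and Top3b and the nuclease subunits Mus81 and Eme2 had -0.39, -0.51, -0.29 and -0.33.

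The Fanconi roles were split. Fancb and Ube2t in the core group and Fancd2 and Fanci, the pair that is ubiquitinated at a crosslink, passed the study's threshold with -1.04, -1.30, -1.33 and -1.32. Fancd2 read 8.21, 14.3 and 2.65 FPKM in control, 13.2, 10.2 and 18.7 in hydrogel, 11.8, 10.5 and 17.2 in PCL and 6.76, 3.9 and 4.23 in β-TCP. Fance, another subunit of the core complex, was higher in β-TCP than in any other library, at 7.91, 7.53 and 6.61 FPKM in control, 8.34, 8.07 and 7.35 in hydrogel, 9.05, 6.68 and 5.59 in PCL and 10.8, 11.5 and 9.83 in β-TCP. Its log2 fold change against hydrogel was 0.39 ± 0.15 (SE), adjusted p = 0.105, and the difference did not pass the adjusted threshold. Medians of the core and effector roles were -0.25 and -0.31, and the 5 translesion polymerases had -0.39, with Polh at -0.99 and Rev3l at -0.59.

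**Figure D4:**
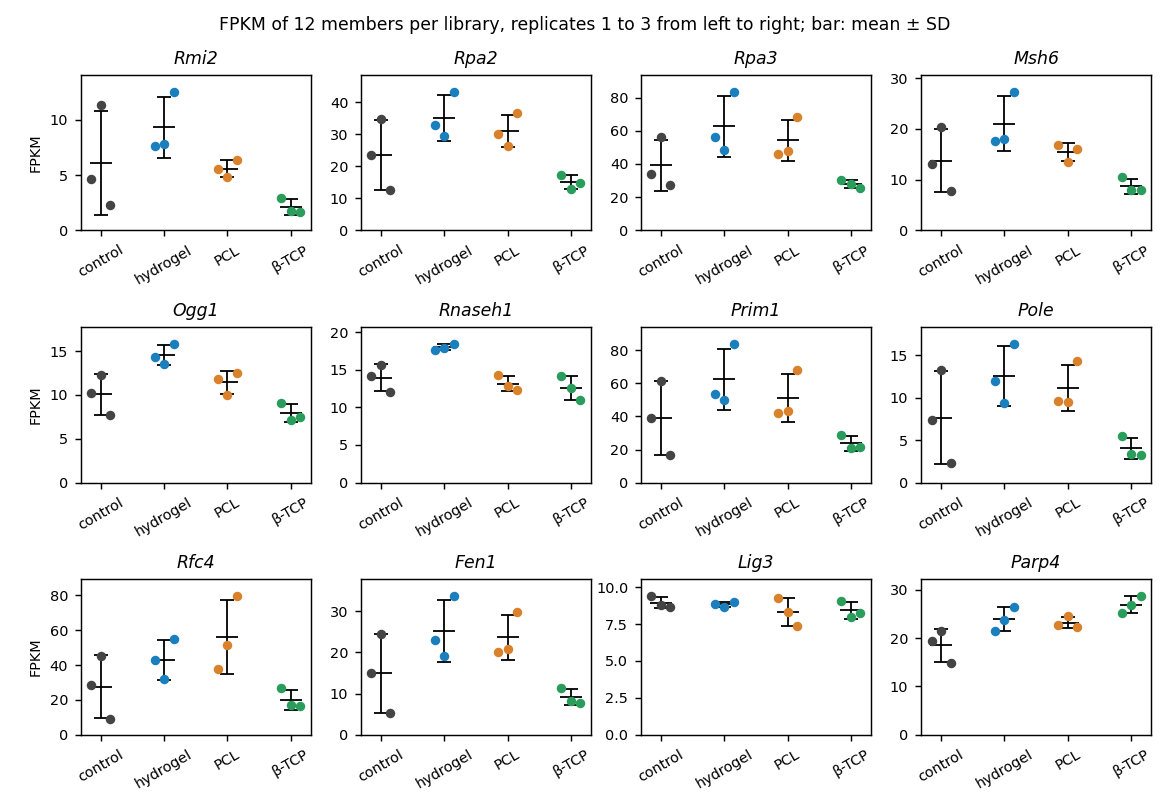
FPKM of 12 members in each library, with points for replicates 1 to 3 from left to right in each group and bars for the mean ± SD of 3 libraries. The y axes start at 0 and differ between genes. In the 6 called genes, Rmi2, Rpa2, Rpa3, Msh6, Ogg1 and Rnaseh1, all β-TCP points lie below all hydrogel points, Lig3 is level, and the β-TCP points of Parp4 overlap those of hydrogel.

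Set beside β-TCP, PCL gave higher values for most members. Limma called none of the 113 members at the adjusted threshold in PCL against β-TCP, where 0.657% of all genes were called, 47 members (41.6%) and 22.4% of all genes had an unadjusted p under 0.05, and limma-voom on recovered fragments called none either. At the study's threshold 17 members (15%) were higher and none lower, against 3.34% and 1.14% of all genes. PCL lay above β-TCP without overlap for 61 members (54.0%) and below it for 8 (7.08%), which held for 21.7% and 23.2% of all genes. The median log2 fold change was 0.37 for members and -0.04 for all genes. The 17 became 3 without PCL 3, 7 without β-TCP 3, 8 without β-TCP 2 and 8 with β-TCP 2 and 3 averaged. Fitted without control 3, 45 members passed the adjusted threshold, 43 of them higher in PCL. That fit called 1912 of all 12633 genes, where the main fit called 83.

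By role, the medians in PCL against β-TCP were 0.96 for polymerases and primase, 0.84 for the clamp loader group and 0.65 for primer removal, 0.59 and 0.44 for the recombination roles and 0.47 for mismatch repair. They were near 0 for the later steps of base excision repair and for the Fanconi effectors, between -0.05 and 0.18 under any alternative. The median of 0.59, that of the recombinase and junction enzymes, ran from 0.54 to 0.91 over the alternatives. The largest change was that of Blm at 1.55 ± 0.50 (SE), followed by Rfc4 at 1.41 ± 0.49 (SE) and Bard1 at 1.33 ± 0.46 (SE). The smallest p-values belonged to Smug1 and Fance, which were lower in PCL at -0.50 and -0.55, and then to Rpa2 and Rpa3 at 0.997 and 0.91, with adjusted p of 0.111 to 0.129. Exo1 read 3.84, 4.64 and 6.09 FPKM in PCL and 1.89, 1.32 and 1.09 in β-TCP, without overlap, and its value was 1.26 ± 0.38 (SE). Both this comparison and β-TCP against hydrogel use the same β-TCP libraries.

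Between PCL and hydrogel the members differed less. None was called by limma or limma-voom, where limma called 0.103% of all genes, 9 members (7.96%) and 8.23% of all genes had an unadjusted p under 0.05, and none passed the study's threshold, which 0.768% of all genes did. PCL lay below hydrogel without overlap for 28 members (24.8%) and above it for none, against 15.4% and 5.09% of all genes, and the median log2 fold change was -0.19 for members and -0.06 for all genes. Without hydrogel 3 the median was -0.08. The smallest p-values were those of Rnaseh1 at -0.43 ± 0.12 (SE), Slx4 at -0.72 ± 0.23 (SE), Eme2 at -0.50 ± 0.18 (SE), Uimc1 at -0.29 ± 0.12 (SE) and Pold4 at -0.39 ± 0.16 (SE), with adjusted p of 0.518 to 0.595. Slx4, the scaffold that holds the nucleases for crossed strands, read 15.2, 18.9 and 8.93 FPKM in control, 14.7, 17.1 and 22.2 in hydrogel, 10.8, 11.2 and 9.33 in PCL and 11.2, 10.6 and 9.42 in β-TCP. Its PCL and β-TCP values lay together below hydrogel.

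Against control no scaffold group had a called member, and the controls differed widely among themselves, as the summed FPKM of the tested members ran from 812 to 1775 over the controls while the group means ran from 1086 to 1787. In hydrogel against control limma and limma-voom called none of 113, where limma called 0.00792% of all genes, 18 members (15.9%) and 15% of all genes had an unadjusted p under 0.05, and none passed the study's threshold, which 2.29% of all genes did. A positive log2 fold change was found for 105 members (92.9%) and 67.3% of all genes, with a median of 0.43 against 0.14 for all genes. Hydrogel lay above control without overlap for 9 members (7.96%) and below it for 1, against 9.15% and 5.98% of all genes, shares no larger than the background. The smallest p-values were those of Ogg1 at 0.51 ± 0.16 (SE), Hes1 at -0.60 ± 0.20 (SE), Bre at 0.42 ± 0.15 (SE), Rnaseh1 at 0.35 ± 0.12 (SE) and Nthl1 at 0.31 ± 0.11 (SE), all with adjusted p = 0.312. Hes1, a transcriptional repressor downstream of Notch that the annotation places with the Fanconi genes, read 15.6, 12.7 and 15.1 FPKM in control, 9.97, 10.5 and 7.34 in hydrogel, 11.2, 9.62 and 5.92 in PCL and 13.9, 12 and 13.6 in β-TCP and was the member with hydrogel below control in every library.

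In PCL against control none was called by limma or limma-voom, where limma called 0.277% of all genes, and 13 members (11.5%) and 18.4% of all genes had an unadjusted p under 0.05. Rfc4 and Blm, 2 of 113, passed the study's threshold at 1.20 ± 0.49 (SE) and 1.15 ± 0.50 (SE), against 2.37% of all genes higher and 1.27% lower. None passed it without PCL 2, PCL 3 or control 3, with the replicate block or with only the 2 groups fitted. PCL lay above control without overlap for 7 members (6.19%) and below it for 2 (1.77%), against 10.3% and 7.84% of all genes. The median was 0.23 for members and 0.04 for all genes. By p-value the first were Nthl1 at 0.38 ± 0.11 (SE), Hes1 at -0.68 ± 0.20 (SE), Nbn, a subunit of the end-trimming complex, at 0.63 ± 0.21 (SE), Bre at 0.43 ± 0.15 (SE) and Fanca at 0.70 ± 0.27 (SE), with adjusted p of 0.157 to 0.227.

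In β-TCP against control none was called by limma or limma-voom either, where limma called 4.78% of all genes, and 7 members (6.19%) and 18% of all genes had an unadjusted p under 0.05. The median was -0.21 for members and 0.03 for all genes, 1 member, Rmi2, passed the study's threshold at -1.01 ± 0.40 (SE), and 1.03% of all genes were lower and 2.49% higher by it. No member was past it without control 2, β-TCP 2 or β-TCP 3, and 15 were lower without control 3. How many of all genes passed it in these fits was not counted. β-TCP lay above control without overlap for 6 members and below it for 2, against 17.9% and 4.97% of all genes. The 4 others with the smallest p-values were higher in β-TCP, namely Parp4 at 0.53 ± 0.14 (SE) with adjusted p = 0.0533, Fance at 0.49 ± 0.15 (SE), Telo2, a partner in folding large kinases, at 0.34 ± 0.12 (SE) and Rnaseh2a at 0.42 ± 0.16 (SE). Parp4 read 19.3, 21.4 and 14.8 FPKM in control, 21.4, 23.7 and 26.4 in hydrogel, 22.8, 24.5 and 22.2 in PCL and 25.3, 26.9 and 28.6 in β-TCP. Its β-TCP values lay above those of every control and overlapped with hydrogel.

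These values changed with the control left out. Without control 3, the median of the members against control was 0.19 for hydrogel, -0.03 for PCL and -0.46 for β-TCP, and 20 members were called in β-TCP, 19 of them lower. That fit called 1350 of all 12633 genes in β-TCP against control, where the main fit called 604. Without control 2 the medians were 0.65 in hydrogel, 0.43 in PCL and 0.00 in β-TCP, 30 members were higher in hydrogel and 15 higher in PCL at the study's threshold, and none was called at the adjusted one. How many of all genes passed the study's threshold in that fit was not counted. Cartilage markers were lower in each comparison with control, with median log2 fold changes of -4.01 in hydrogel, -4.48 in PCL and -3.95 in β-TCP. Their sums were 2719 to 15594 FPKM in control and 379 to 901, 226 to 522 and 327 to 1194 FPKM in hydrogel, PCL and β-TCP. All 12 tested cartilage markers were lower in each scaffold group without overlap, against 5.98%, 7.84% and 4.97% of all genes in the same order. The part of the cartilage markers in the members' values was not tested.

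Genes that work with the members at the fork were also lower in β-TCP than in hydrogel. For 24 helicase, clamp and licensing genes outside the rule, all tested, the median log2 fold change in β-TCP against hydrogel was -1.36. Among them 1 was called lower and none higher, and 18 were lower at the study's threshold. The 11 genes of deoxynucleotide supply had -1.29, with none called and 7 lower at the study's threshold, and the 20 genes of mitosis and division -1.55, with none called and 20 lower at that threshold. The repair pathways outside the rule moved less, with -0.27 for 9 genes of non-homologous end joining and -0.25 for 17 of nucleotide excision repair, none called and 2 and 1 lower at the study's threshold. Of all genes tested, 5.02% were lower at that threshold. In PCL against β-TCP the medians of these 5 lists were 1.31, 1.30, 1.46, 0.11 and 0.09 in the same order.

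Markers of marrow and blood cells moved with the members in β-TCP against hydrogel. The erythroid markers summed to 42836 to 87977 FPKM in hydrogel and 14410.0 to 31940.3 FPKM in β-TCP, with a median log2 fold change of -1.88 and 18 of 21 tested genes lower without overlap. B cell lineage markers summed to 621 to 1232 and 96.7 to 240.1 FPKM, with -2.68 and 15 of 15 lower without overlap, and neutrophil lineage markers to 3113 to 5390.0 and 1811 to 2299 FPKM, with -1.77 and 11 of 14 lower without overlap. None of these genes was called at the adjusted p, and 2, 13 and 7 were lower at the study's threshold, while 1 gene of the neutrophil list, the protease gene Mmp9, which osteoclasts also express, was higher at it and without overlap. Of all genes tested, 34.5% were lower and 23% higher without overlap, and 5.02% were lower and 3.36% higher at the study's threshold. Hbe2 of the erythroid list was at 0 in all libraries, and Vpreb1 of the B cell list was at 0 in control 3.

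Osteoclast markers and most macrophage markers moved the opposite way. Osteoclast markers summed to 2310.1 to 5227 FPKM in hydrogel and 9549.8 to 9770.0 FPKM in β-TCP, with a median of 1.30. All 8 tested genes were higher without overlap, and 7 of them were called, where 23% of all genes were higher without overlap and 5.17% called higher. Macrophage markers summed to 3654 to 5507 and 4317 to 9411 FPKM, with a median of 0.80 and 4 of 11 called higher. β-TCP 1, at 4317 FPKM, lay within the hydrogel range. The higher sums, 9354 and 9411 FPKM, were those of the close pair β-TCP 2 and β-TCP 3. Of the 11 macrophage genes, 1 went the other way, at -1.66, past the study's threshold and without overlap. For T cell, bone-forming, cartilage, muscle and endothelial markers the medians were -0.02, 0.37, 0.17, -1.21 and 0.22, with 1 T cell and 1 bone-forming gene called higher. The part of these cell types in the members' values was not tested.

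In PCL the marker lists parted from one another while the members stayed between hydrogel and β-TCP. In PCL against β-TCP the erythroid median was 2.24, with 19 of 21 genes higher without overlap, and the B cell median 1.14, with 2 of 15. Of all genes tested, 21.7% were higher without overlap, so the B cell count was not above that share. PCL 1, PCL 2 and PCL 3 had median centred values of 0.47, 1.17 and 2.09 for erythroid, 1.04, -0.76 and -0.38 for B cell and 0.35, 0.27 and 1.01 for mitosis genes, beside 0.13, 0.02 and 0.15 for the members and 0.17, 0.12 and 0.62 for their polymerases. PCL 3 thus held the highest erythroid and polymerase values of its group and a B cell value below that of PCL 1.

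Neil1 and Blm followed different libraries within PCL. Neil1 was 11.1, 5.03 and 4.94 FPKM in PCL 1, PCL 2 and PCL 3, high where the B cell markers were high, and Blm was 16.4, 21.8 and 31.1 FPKM, high where the erythroid markers were high. Hydrogel 3, the highest library for 80 members, also had the highest B cell sum, 1232 FPKM, the highest muscle sum, 508 FPKM, and the lowest bone-forming sum, 9418 FPKM, of the 12 libraries. What each cell type contributed was not tested.

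**Figure D5:**
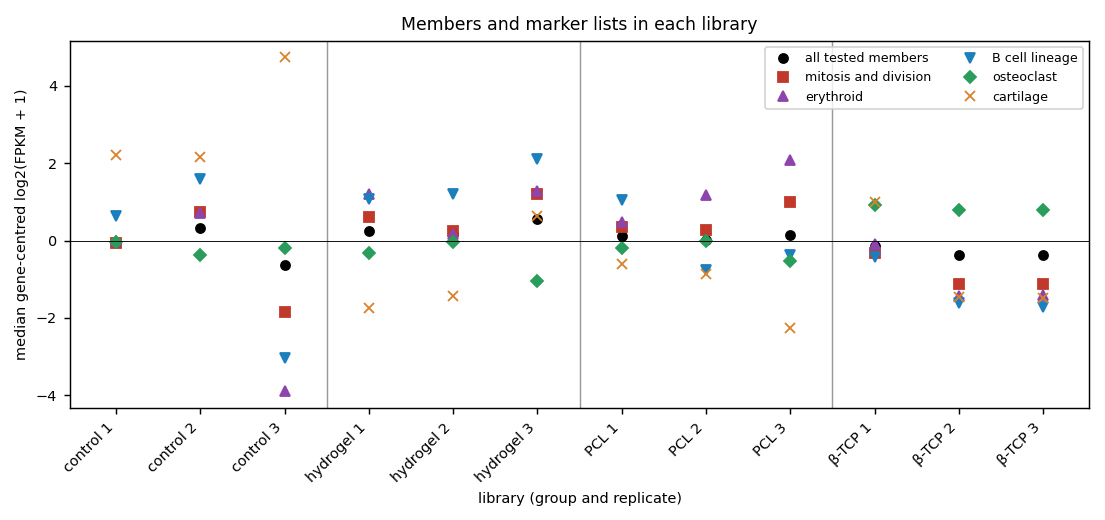
The median of log2(FPKM + 1) after centring each gene on its mean over the 12 libraries is plotted for the tested members and 5 marker lists in each library. Control 3 holds the lowest erythroid, B cell and mitosis values and the highest cartilage value, and the osteoclast values of the 3 β-TCP libraries, 0.78 to 0.92, stand above those of all other libraries.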

How the data were processed

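Upstream, per the labels and the study's methods, reads were cleaned with Trimmomatic and mapped with HISAT2 to Rnor_6.0, and the deposited values are the authors' FPKM from Cufflinks. HTSeq, DESeq, Bowtie and StringTie also stand in the submitters' notes, without versions. The methods name Trizol, a VAHTS kit and a NovaSeq, but the labels name mirVana, TruSeq Stranded and HiSeq. Whether counting used strand is not given in the sources used here, so overlapping genes may share reads. Of the table's value columns, 3 carried names absent from the labels and were left aside.

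A gene was tested if 3 or more libraries held 1 FPKM or more. The model was that of limma (version 3.58.1, R 4.3.3) on the log2 of FPKM with a pseudocount of 1, which understates the change of low genes. It had a mean for each of the 4 groups and a variance trend, and two-sided p-values were adjusted by Benjamini-Hochberg over 12633 genes. Fragments were recovered for 17942 of 18684 genes above 0 (96.0%), within 0.01 of a whole number. Same-numbered libraries did not deviate together (4 of 18 correlations over 0.1), so no block was used. Members and 15 gene lists (211 of 216 symbols in the table) were chosen with earlier results of these data known. Members named were those called, the 5 with the smallest p of each comparison, the 2 highest and 2 most variable of each role, the 5 steadiest at a mean of at least 5 FPKM and those under 1 FPKM. Values of 3 members are not reported here. The rest were named by role after their values were seen. Alternatives were a pseudocount of 0.1, no filter or one on the mean, 2 other scalings, only the groups compared, a replicate block, limma-voom on recovered fragments, β-TCP 2 and 3 averaged, and leaving out single libraries. At the study's threshold, all genes were counted in the main fit only. The model was checked on simulated data, and figures were drawn with matplotlib 3.10.9.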

Additional observations from a re-analysis of the deposited data

How the results depend on the processing

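The median of the members changed sign in PCL against control, from 0.23 to -0.03 without control 3, and in β-TCP against control, from -0.21 to 0.00 (above 0) without control 2. It kept its sign in the 4 other comparisons under the alternatives run, as did the log2 fold changes of the 6 members called. In β-TCP against hydrogel the 6 called members became 1 without a filter on low values, 22 with median-of-ratios scaling (21 lower, 1 higher), 69 when only the 2 groups were fitted, 2 with limma-voom, 0 with β-TCP 2 and 3 averaged and 0 to 73 with 1 library left out. Calls over all genes tested, 775 in the main fit, were 1348 with median-of-ratios scaling and 4251 when only the 2 groups were fitted. With the replicate number as a block the count of called members was 0, with a smallest adjusted p of 0.0516 in limma. The libraries share only a number, and the block moved no other count of called members. In PCL against β-TCP the count of 0 became 47 when only the 2 groups were fitted and ran from 0 to 45 with 1 library left out, and the median of 0.37 became 0.54 with hemoglobin genes left out of the total and 0.30 to 0.49 with 1 library left out. Calls over all genes tested were 83 in the main fit, 2189 when only the 2 groups were fitted and 1912 without control 3. In β-TCP against control the count of 0 became 1 with median-of-ratios scaling and ran from 0 to 20 with 1 library left out. Calls over all genes tested were 604 in the main fit and 1350 without control 3, the fit that gave 20. For named members, 569 values under an alternative kept their side of the threshold, 71 lost the call and 11 gained it. Most that kept their side were of members not called in the main fit, which had no call to lose. All losses were of the 6 called members. Rpa2 lost its call most often, in 10 fits with 1 library left out and in 5 other alternatives. Ogg1 lost it least often, in 4 and 2. The cause was not tested. Median-of-ratios scaling moved the median of all genes in hydrogel against control from 0.14 to 0.01 and that of the members from 0.43 to 0.30. Between the 3 scalings the sign differed for 6 tested members in β-TCP against hydrogel and for 7 to 18 in the other comparisons. Members under 1 FPKM are limited by depth, and 3 libraries a group limit every test.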
